A study of Mus musculus with 9 samples.

Results

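Smooth-muscle contractile genes encode the actin, myosin and actin-binding proteins with which smooth muscle cells pull, and fibroblasts switch on many of them when they become myofibroblasts. The 10 genes described here are Acta2, Tagln, Cnn1, Myl9, Actg2, Myh11, Tpm1, Tpm2, Cald1 and Lmod1. They were chosen by name for that function, with earlier results of these data known, and each was found as 1 row of the 38924 genes of the deposited count table. All 10 were expressed highly enough to be tested in every comparison.

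Expression was measured by RNA sequencing of primary cardiac fibroblasts from adult mice 8 to 10 weeks old, all carrying the RosaCas9-EGFP allele (the Cas9 nuclease with a green fluorescent protein) on a C57BL/6 background. Cells were cultured for 3 days, sorted as CD45-CD31-CD90+, replated, and after 6 days, at 80 to 90% confluency, given guide RNAs with a lipid reagent. Control cells received scrambled guides, Gata4 KD cells 2 guides against Gata4, and Tbx20 KD cells 2 guides against Tbx20, both genes for heart transcription factors. There were 3 libraries in each group, named a, b and c, which the study describes as biological replicates. The labels name no animal or culture for them, and p-values measure only the spread between these libraries. Guides were delivered to mixed cultures, so a library holds cells in which the target was cut and cells in which it was not.

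In muscle, actin filaments slide past myosin filaments, and the proteins that coat the actin filament set when myosin may bind. In smooth muscle and myofibroblasts, transcription of these genes is driven largely by serum response factor (SRF), which binds a DNA element called the CArG box, together with its partners myocardin and the myocardin-related factors. Acta2, the gene of smooth muscle alpha-actin, is the usual marker of a myofibroblast, whereas Myh11, the smooth muscle myosin heavy chain, marks mature smooth muscle. The table gives 1 value per gene, so the smooth muscle and non-muscle forms made from Tpm1, Tpm2 and Cald1 are counted together.

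Total counts ranged from 31214828 to 41950397 per library. Gata4 was at 155 to 167 CPM (counts relative to library size, scaled by TMM factors) in control and at 46.7 to 65.5 CPM in Gata4 KD, and fell by 1.55 on the log2 scale (SE 0.12; edgeR quasi-likelihood test, adjusted p = 0.00272). Tbx20 was at 720 to 1275 CPM in control and 320 to 428 CPM in Tbx20 KD, a log2 fold change of -1.35 (SE 0.21) that did not pass the edgeR test (adjusted p = 0.748), although the groups did not overlap. Summed markers of cardiomyocytes were at 0.857 to 2.03 CPM over the 9 libraries, with Myl3, Nppa and Pln at 0. Of 8 markers of mural cells, the pericytes and smooth muscle cells of vessels that also express contractile genes, 4 were under 1 CPM in all libraries, and the summed level was 84 to 91.6 CPM in control, 74.6 to 94.7 CPM in Gata4 KD and 82.8 to 91.2 CPM in Tbx20 KD. Most of that sum was Mcam and Notch3, at means of 56.2 and 24.4 CPM in control. Summed fibroblast markers were at 11491 to 12280 CPM in control, 8898 to 11463 CPM in Gata4 KD and 11096 to 12875 CPM in Tbx20 KD. Every Gata4 KD library was below every control library, although the closest were at 11463 and 11491 CPM. Most of the sum was Col1a1, Col1a2 and Vim, at means of 4005, 3865 and 2753 CPM in control. Of the 8 markers, 6 had a log2 fold change below 0 in Gata4 KD against control (54.1% of all genes), and none passed (0.380%). By edgeR 4 had an unadjusted p under 0.05 (8.54% of all genes). Of these, Tcf21 at -0.61 (SE 0.19), Col1a1 at -0.35 (SE 0.12) and Vim at -0.20 (SE 0.08) were lower without overlap (7.62% of all genes). Pdgfra was at 0.37 (SE 0.14) with overlap. Ddr2 was at 0.06 (SE 0.09), while Thy1, the gene of CD90, was at -0.05 (SE 0.13). Between the knockdowns 5 had an unadjusted p under 0.05 (16.7% of all genes) and none passed, with Tcf21 at -0.90 (SE 0.21). In Gata4 KD against control, 3 of the 4 mural markers tested and 5 of the 7 endothelial markers had a log2 fold change above 0 (45.9% of all genes). None of them passed (0.380% of all genes). The lowest were Notch3, of mural cells, at -0.48 (SE 0.32), and Tek, of endothelial cells, at -0.34 (SE 0.30), both with overlapping groups. Those higher in every Gata4 KD library (6.19% of all genes) were Rgs5, of mural cells, and Kdr, of endothelial cells. Rgs5 was at 4.02 to 6.33 CPM against 1.9 to 3.41 CPM in control (edgeR adjusted p = 0.265). Kdr was at 5.06 to 6.19 CPM against 2.29 to 3.47 CPM (edgeR adjusted p = 0.0996). Kdr also passed between the knockdowns (log2 0.90, SE 0.13, edgeR adjusted p = 0.0258), where 4 of the 7 endothelial markers were above 0 (48.3% of all genes). Vwf was also higher without overlap there (log2 0.62, SE 0.13, edgeR adjusted p = 0.0789), while Tek was at -0.48 (SE 0.30) with overlap. The summed endothelial markers overlapped, at 41.8 to 60.9 CPM in Gata4 KD, 45 to 57 CPM in Tbx20 KD and 41 to 59.6 CPM in control. Tek, at a mean of 28 CPM in control, was the most abundant of them. Of the 4 mural markers tested between the knockdowns none passed (1.44% of all genes), and 3 were above 0 (48.3% of all genes). Mcam (log2 0.16, SE 0.07) and Rgs5 (log2 0.73, SE 0.20) were higher in every Gata4 KD than in every Tbx20 KD library (12.2% of all genes). Notch3 was at -0.66 (SE 0.33) with overlap. In bulk RNA, fewer cells of a type and less RNA per cell cannot be told apart, and the part of these markers in the results was not tested.

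The promoters show where the regulator of these genes could bind. RefSeq windows of GRCm38.p6, searched over the 250 bases before the start site, were given for 7 of the 10 genes. Tagln, Actg2 and Myh11 have no entry in the table. A CArG box, CC followed by 6 bases of A or T and then GG, which reads as the same class on both strands, was in 1.47% of 32851 windows and, among these genes, in that of Myl9. A looser form with at most 1 G or C among the 6 middle bases was in 8.59% of windows, and in those of Acta2 and Myl9. The boxes are shown with 10 bases on either side, with the box in capitals. Both Myl9 boxes lie on the plus strand outside the annotated Myl9 gene, at chr2:156775293-156775322 and chr2:156775355-156775384, and start 161 and 99 bases before the start site. Other annotated genes were not checked at these positions. Both Acta2 boxes are read on the minus strand, at chr19:34255438-34255467 and chr19:34255388-34255417, start 84 and 34 bases before the RefSeq start site, and fall in an untranslated exon of a longer GENCODE M21 transcript.
Myl9, distal box: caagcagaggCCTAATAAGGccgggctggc
Myl9, proximal box: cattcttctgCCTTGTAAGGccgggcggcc
Acta2, distal box: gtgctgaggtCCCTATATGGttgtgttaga
Acta2, proximal box: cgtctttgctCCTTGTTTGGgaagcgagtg
GATAA, the core read by GATA factors, was found on either strand of 22.6% of windows and in that of Acta2. AGGTGT, the core read by T-box factors, was in 11.8% of windows and in none of the 7 genes. The looser box, GATAA and AGGTGT were chosen for the search after expression values were known, and a match or its absence shows only whether the letters occur in the window.

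The first question was how strongly cultured cardiac fibroblasts expressed each gene. In control, Acta2 had the highest level per length of the 10, at 489 ± 59.5 CPM per kilobase of exon (SD, n = 3). Next came Tagln at 210 ± 18.5 and Cald1 at 160 ± 26.7 CPM per kilobase, which overlapped each other. Myl9 at 122 ± 15.6, Tpm1 at 104 ± 2.31 and Tpm2 at 91.5 ± 10.4 CPM per kilobase formed a run in which neighbours overlapped. A gap then separated Cnn1 at 2.81 ± 0.483, Lmod1 at 2.54 ± 0.0726 and Actg2 at 2.18 ± 0.649 CPM per kilobase, again with overlapping neighbours. Myh11 was lowest, at 0.305 ± 0.0571 CPM per kilobase, below every library of the others.

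**Figure D1:**
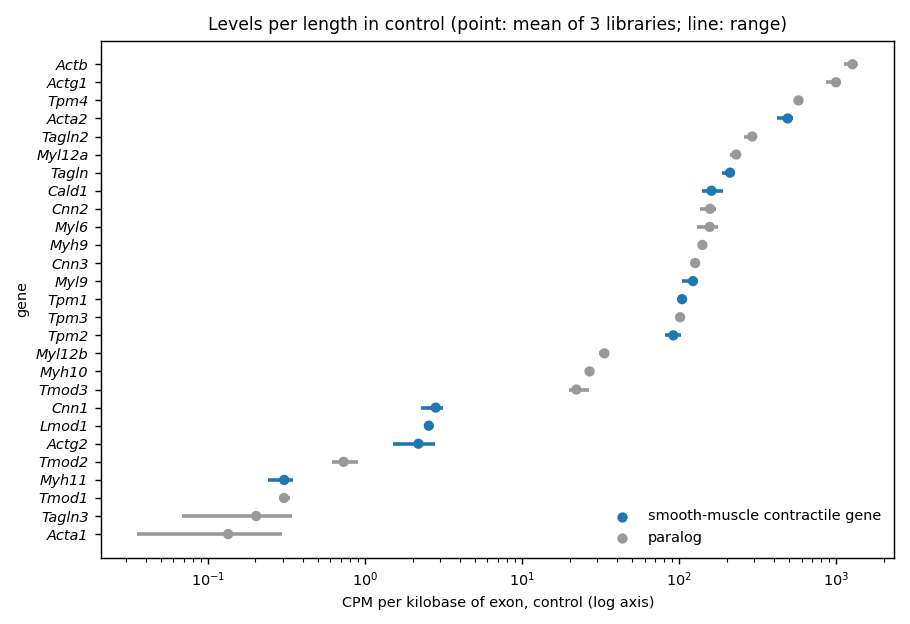
Level per length in the 3 control libraries on a log axis (CPM per kilobase of exon; point, mean; line, lowest to highest library) for the 10 contractile genes (blue) and those paralogs with a mean of 0.1 or more (grey). Acta2, at 489, lies below the cytoplasmic actins Actb and Actg1, at 1265 and 993, whereas Myh11, at 0.305, lies far below the non-muscle myosin Myh9, at 140.

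The order depended on the length used for the genes with many transcripts. Per length of the longest transcript instead of all exons, Cald1 was at 403 and Tpm1 at 232 CPM per kilobase, and Cald1 then overlapped Acta2 at 527. The upper 6 and lower 4 genes were the same with either length. Among close relatives, the non-muscle genes were often the more abundant, as the plot of levels per length shows. Tagln2 was at 291 ± 28.2 CPM per kilobase against 210 ± 18.5 for Tagln (SD, n = 3). Tpm4 was at 573 ± 30.8 CPM per kilobase, above Tpm1, and Tpm3, at 101 ± 3.62, overlapped Tpm1 and Tpm2. That overlap also depended on the length used. Per longest transcript Tpm3 was at 249 to 266 CPM per kilobase in control, above Tpm1 at 227 to 237 and Tpm2 at 108 to 136.

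The second question was whether either knockdown changed the contractile genes. No gene of the 10 passed the edgeR test (adjusted p under 0.05 over all genes) in Gata4 KD against control, in Tbx20 KD against control, or in Gata4 KD against Tbx20 KD, where 0.380%, 0.00687% and 1.44% of all genes tested passed. The gene nearest to the threshold was Cnn1. In Tbx20 KD against control the targeted Tbx20 did not pass either, so not passing there does not show that a gene was unchanged. Values are given below by role, and the 3 comparisons share libraries, so they are not independent of each other.

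**Figure D2:**
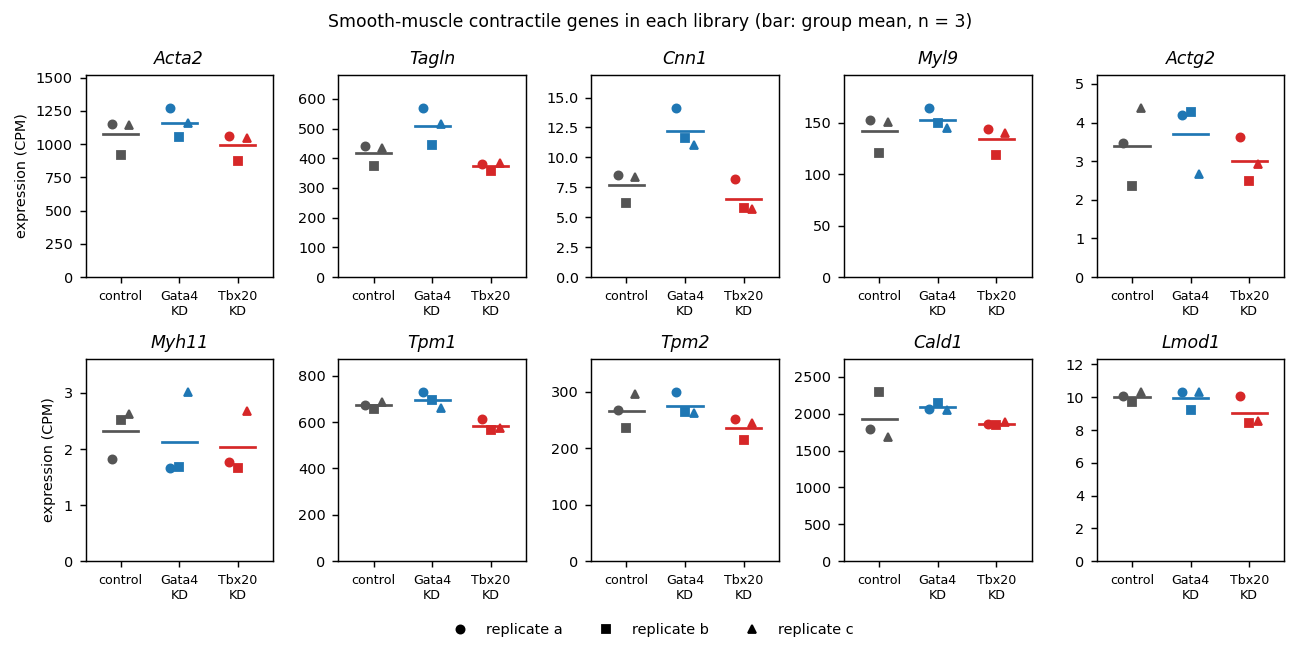
Expression (CPM, each axis from 0) of each gene in the 9 libraries; symbols mark replicates a, b and c, and horizontal bars mark the mean of 3 libraries. Cnn1 was at 11 to 14.1 CPM in Gata4 KD and at 5.68 to 8.51 CPM in the other 6 libraries, whereas for Acta2, Actg2, Myh11 and Lmod1 all 3 groups overlap.

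Calponin 1, the product of Cnn1 (ENSMUSG00000001349, chromosome 9, 22099216 to 22109630, plus strand), binds actin and slows the myosin motor. Cnn1 was at 8.51, 6.16 and 8.37 CPM in control a, b and c, at 14.1, 11.6 and 11 CPM in Gata4 KD a, b and c, and at 8.16, 5.8 and 5.68 CPM in Tbx20 KD a, b and c. All 3 Gata4 KD libraries were above all other libraries, and Tbx20 KD overlapped control. Cnn1 was 1.59 times its control level in Gata4 KD (log2 fold change 0.67, SE 0.16; edgeR adjusted p = 0.19) and 1.86 times its Tbx20 KD level (log2 0.90, SE 0.17; adjusted p = 0.0524). In Tbx20 KD against control its log2 fold change was -0.22 (SE 0.18; edgeR adjusted p = 1). The difference from Tbx20 KD lay on the edge of the threshold, passing in 7 of 13 other settings with adjusted p from 5.77e-05 to 0.224.

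Transgelin (SM22), the product of Tagln (ENSMUSG00000032085, chromosome 9, 45929619 to 45936058, minus strand), is a calponin relative that bundles actin filaments. Tagln was at 442, 375 and 434 CPM in control, at 568, 445 and 515 CPM in Gata4 KD and at 382, 356 and 384 CPM in Tbx20 KD, in replicates a, b and c. Every Gata4 KD library was above every control and every Tbx20 KD library, although Gata4 KD b was close to control a, and Tbx20 KD overlapped control. The log2 fold change was 0.29 (SE 0.11; edgeR adjusted p = 0.51) in Gata4 KD against control, -0.15 (SE 0.08; adjusted p = 1) in Tbx20 KD against control, and 0.45 (SE 0.09; adjusted p = 0.065) between the knockdowns. The last passed in 5 of 13 other settings, with adjusted p from 0.000269 to 0.271. The gene overlaps Pcsk7 on the other strand, and the study's methods state that reads were counted by strand.

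The estimates for Tagln and its non-muscle relative Tagln2 had opposite signs. Tagln2 was at 650, 540 and 629 CPM in control, 511, 462 and 423 CPM in Gata4 KD and 638, 593 and 632 CPM in Tbx20 KD. Its log2 fold change was -0.38 (SE 0.11; edgeR adjusted p = 0.267) in Gata4 KD against control and -0.42 (SE 0.08; adjusted p = 0.0522) between the knockdowns. The ratio of Tagln to Tagln2 per length was 0.721 ± 0.00795 in control, 1.15 ± 0.134 in Gata4 KD and 0.631 ± 0.0048 in Tbx20 KD (SD, n = 3). Within single libraries it was 0.712 to 0.727 in control, 1.01 to 1.27 in Gata4 KD and 0.627 to 0.636 in Tbx20 KD, so that the 3 groups did not overlap. The ratio is free of library scaling, but it was picked after the values were seen and was not tested.

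Acta2 (ENSMUSG00000035783, chromosome 19, 34241090 to 34255590, minus strand), the actin of smooth muscle and stress fibres, was at 1154, 922 and 1143 CPM in control, 1270, 1054 and 1161 CPM in Gata4 KD and 1063, 874 and 1043 CPM in Tbx20 KD. Replicate b was the lowest of its group each time, and all 3 groups overlapped. The log2 fold change was 0.11 (95% confidence interval -0.15 to 0.37; edgeR adjusted p = 0.848) in Gata4 KD and -0.10 (-0.36 to 0.16; adjusted p = 1) in Tbx20 KD against control. Between the knockdowns it was 0.22 (SE 0.10; edgeR adjusted p = 0.306). Acta2 made up 17.8% ± 0.403 of the level per length of the 6 actin genes in control, 19% ± 1.81 in Gata4 KD and 17.7% ± 0.685 in Tbx20 KD (SD, n = 3), again with overlap.

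Actg2 (ENSMUSG00000059430, chromosome 6, 83512905 to 83536265, minus strand), the gamma-actin of enteric smooth muscle, was at 3.48, 2.35 and 4.37 CPM in control, 4.19, 4.27 and 2.68 CPM in Gata4 KD and 3.62, 2.48 and 2.92 CPM in Tbx20 KD. It rested on 79 to 155 counts per library, and all groups overlapped. Its log2 fold change was 0.13 (95% confidence interval -0.49 to 0.74) in Gata4 KD and -0.16 (-0.71 to 0.40) in Tbx20 KD against control. Between the knockdowns it was 0.30 (SE 0.22; edgeR adjusted p = 0.54).

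Myl9 and Myh11 encode the myosin subunits of the set. Myl9 (ENSMUSG00000067818, chromosome 2, 156775420 to 156781658, plus strand) encodes the regulatory light chain whose phosphorylation starts contraction. It was at 153, 121 and 151 CPM in control, 164, 150 and 145 CPM in Gata4 KD and 144, 119 and 140 CPM in Tbx20 KD. The knockdowns did not overlap each other, by a margin of under 1 CPM between Gata4 KD c and Tbx20 KD a, but both overlapped control. Its log2 fold change was 0.11 (SE 0.11) in Gata4 KD, -0.07 (SE 0.11) in Tbx20 KD and 0.19 (SE 0.08; edgeR adjusted p = 0.316) between them.

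Myh11 (ENSMUSG00000018830, chromosome 16, 14194535 to 14291372, minus strand) was at 1.82, 2.52 and 2.62 CPM in control, 1.67, 1.68 and 3.01 CPM in Gata4 KD and 1.77, 1.66 and 2.68 CPM in Tbx20 KD. These values rested on 53 to 109 counts, and the groups overlapped throughout. The log2 fold change was -0.13 (95% confidence interval -0.77 to 0.52) in Gata4 KD and -0.17 (-0.73 to 0.38) in Tbx20 KD against control, and 0.06 (-0.64 to 0.75) between the knockdowns. These intervals are among the widest of the 10 genes.

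The tropomyosins lie along the actin filament and steady it. Tpm1 (ENSMUSG00000032366, chromosome 9, 67022590 to 67049406, minus strand) was at 675, 655 and 685 CPM in control, 728, 695 and 660 CPM in Gata4 KD and 615, 565 and 574 CPM in Tbx20 KD. All 3 Tbx20 KD libraries were below all 6 others, while Gata4 KD overlapped control. The log2 fold change in Tbx20 KD against control was -0.19 (SE 0.07; edgeR unadjusted p = 0.0267, adjusted p = 1), that between the knockdowns 0.25 (SE 0.06; adjusted p = 0.105), and that in Gata4 KD against control 0.05 (SE 0.08).

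Tpm2 (ENSMUSG00000028464, chromosome 4, 43514711 to 43523765, minus strand), the beta-tropomyosin, was at 267, 236 and 296 CPM in control, 299, 264 and 263 CPM in Gata4 KD and 251, 215 and 244 CPM in Tbx20 KD. The knockdowns were separate from each other and both overlapped control. Its log2 fold change was 0.05 (SE 0.10) in Gata4 KD, -0.16 (SE 0.10) in Tbx20 KD and 0.22 (SE 0.08; edgeR adjusted p = 0.226) between them.

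Caldesmon, from Cald1 (ENSMUSG00000029761, chromosome 6, 34598500 to 34775473, plus strand), blocks myosin on the actin filament. It was at 1789, 2289 and 1690 CPM in control, 2070, 2145 and 2050 CPM in Gata4 KD and 1866, 1848 and 1883 CPM in Tbx20 KD. The control libraries spanned both knockdowns, with control b the highest of all 9, whereas the knockdowns were narrow and separate. Their log2 difference was 0.16 (SE 0.05; edgeR adjusted p = 0.177), against 0.12 (SE 0.12) and -0.03 (SE 0.12) for Gata4 KD and Tbx20 KD against control.

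Leiomodin 1, from Lmod1 (ENSMUSG00000048096, chromosome 1, 135324807 to 135368065, plus strand), starts new actin filaments in smooth muscle. It was at 10.1, 9.71 and 10.3 CPM in control, 10.3, 9.25 and 10.3 CPM in Gata4 KD and 10.1, 8.4 and 8.55 CPM in Tbx20 KD, with overlap between all groups. The log2 fold change was -0.01 (95% confidence interval -0.25 to 0.23) in Gata4 KD, -0.14 (-0.39 to 0.10) in Tbx20 KD and 0.14 (-0.10 to 0.37) between them.

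**Figure D3:**
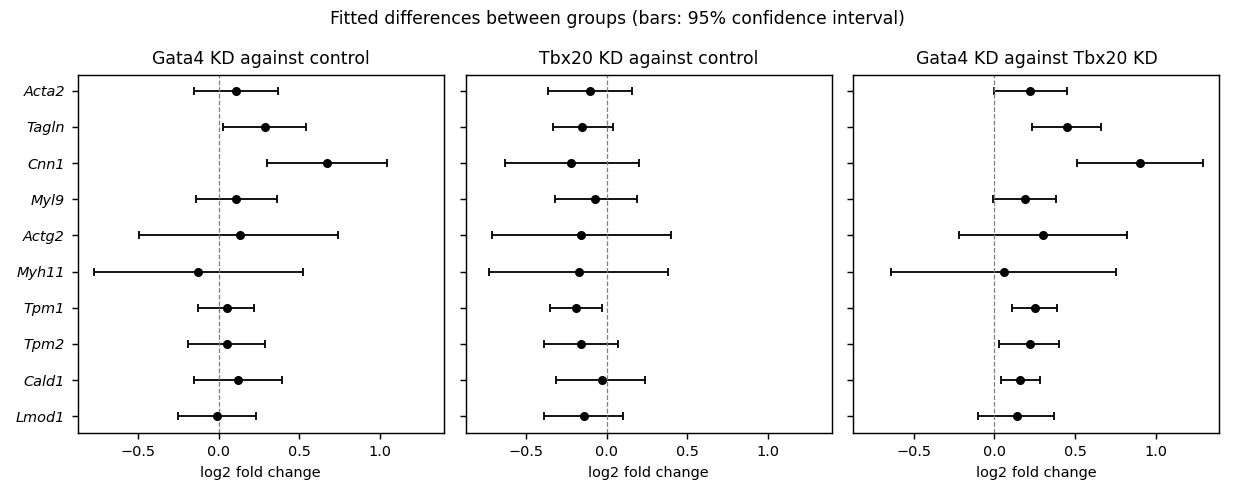
Fitted log2 fold change of each gene in the 3 comparisons, from edgeR (point, estimate; bar, 95% confidence interval; dashed line, no difference). All 10 estimates lie below 0 in Tbx20 KD against control and above 0 in Gata4 KD against Tbx20 KD, with the largest at 0.90 for Cnn1, and none passed the threshold after adjustment over all genes.

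As a list, the 10 genes are described by counts and medians beside those of all genes tested. The list was chosen with earlier results of these data known, so the counts describe it and do not test it. In Gata4 KD against control 8 of 10 had a log2 fold change above 0, against 45.9% of all genes tested, with a median of 0.11 against -0.02 over all genes. Groups did not overlap, with Gata4 KD higher, for 2 genes (6.19% of all genes), and the unadjusted p was under 0.05 for 2 (8.54% of all genes), Tagln and Cnn1 in both cases.

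In Tbx20 KD against control all 10 were below 0, against 50.7% of all genes, with a median of -0.15. One gene, Tpm1, lay below control without overlap (3.93% of all genes), and it alone reached an unadjusted p under 0.05 (2.69% of all genes).

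Between the knockdowns all 10 were above 0, against 48.3% of all genes, with a median of 0.22 against -0.01. Gata4 KD was higher without overlap for 6 genes, Tagln, Cnn1, Myl9, Tpm1, Tpm2 and Cald1 (12.2% of all genes). For 5 of these, all except Myl9, the unadjusted p was under 0.05 (16.7% of all genes). Of the 208 genes that passed, 118 were higher and 90 lower in Gata4 KD, whereas scaling by library size without TMM factors gave 90 higher and 112 lower. Under that scaling all 10 contractile genes remained above 0, with a median of 0.19.

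The 10 genes did not vary independently of each other over the libraries. Gata4 KD a was the highest of the 9 libraries for 7 genes, Tbx20 KD b was the lowest for 7, and control b was the lowest control for 8. The summed level of the 10 genes ran from 3996 CPM in Tbx20 KD b to 5128 CPM in Gata4 KD a, which is 0.4% to 0.513% of counts. Without Gata4 KD a the median log2 fold change against control was 0.06, and without control b it was 0.01, with 6 of 10 genes above 0. Without Tbx20 KD b the median in Tbx20 KD against control was -0.07, with 9 of 10 below 0, and the median between the knockdowns was 0.15, with 9 of 10 above 0.

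**Figure D4:**
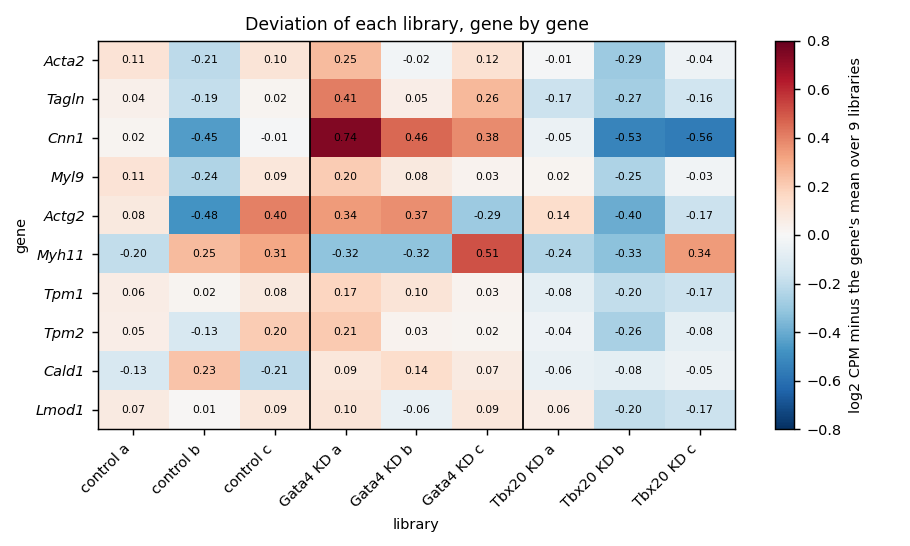
Log2 CPM of each gene in each library minus that gene's mean over the 9 libraries (red, higher; blue, lower; vertical lines separate the groups). Gata4 KD a and Tbx20 KD b stand at opposite ends for 6 of the genes, for example 0.41 and -0.27 for Tagln, while Myh11 and Cald1 follow another pattern.

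Myh11 and Cald1 stood out from this shared pattern. Across the 9 libraries, the Pearson correlation of a gene with the mean of the 10 standardised genes, of which it is itself a part, was 0.0608 for Myh11 and 0.13 for Cald1, and between 0.687 (Actg2) and 0.938 (Tpm2) for the other 8. Among 8910 other genes with a mean of at least 10 CPM, those most like the mean of the 10 included Eif2ak4 (r = 0.955, rho = 0.817), a kinase that senses amino acid shortage. Mcam (r = 0.934, rho = 0.9), an adhesion molecule and 1 of the 8 mural markers above, Phlpp2 (r = 0.933, rho = 0.883), a phosphatase, and Relt (r = 0.931, rho = 0.917), a receptor, were also among them. These values describe 9 libraries that share group differences and depth.

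Genes that act on the contractile set were compared as lists. None of 8 transcriptional regulators passed in any of the 3 comparisons by edgeR, and 0, 0 and 1 had an unadjusted p under 0.05, beside the 8.54%, 2.69% and 16.7% of all genes given above. Srf itself was at 55.7 ± 5.83 CPM in control, 59.3 ± 3.36 in Gata4 KD and 53.1 ± 5.9 in Tbx20 KD (SD, n = 3). Mrtfb, a myocardin-related partner of SRF, was at 51.6, 55 and 50.1 CPM in control, 55.8, 59.9 and 61.4 CPM in Gata4 KD and 48.9, 48.9 and 50 CPM in Tbx20 KD. Its groups were separate in each comparison, although Tbx20 KD c, at 50 CPM, was barely below control c, at 50.1 CPM. Its log2 difference between the knockdowns was 0.26 (SE 0.05; edgeR adjusted p = 0.0627). Against control it was 0.18 (SE 0.08; edgeR adjusted p = 0.609) in Gata4 KD and -0.07 (SE 0.07; adjusted p = 1) in Tbx20 KD. Myocd, the gene of myocardin, was low, at 1.6 ± 0.392 CPM in control and 1.06 ± 0.243 CPM in Tbx20 KD (SD, n = 3), a log2 fold change of -0.57 (SE 0.26) with overlapping groups.

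None of 9 genes that switch myosin on or off passed, and 0, 0 and 2 had an unadjusted p under 0.05 by edgeR, beside 8.54%, 2.69% and 16.7% of all genes. The smallest p values belonged to Rock2 (log2 0.20, SE 0.11) in Gata4 KD, Ppp1r14a (log2 -0.14, SE 0.13) in Tbx20 KD and Ppp1r12a (log2 0.13, SE 0.04; edgeR adjusted p = 0.195) between the knockdowns. Rock2 is a kinase that restrains the myosin phosphatase, Ppp1r14a an inhibitor of that phosphatase and Ppp1r12a its targeting subunit.

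None of 17 further genes of the smooth muscle cytoskeleton passed either, with 3, 0 and 8 at an unadjusted p under 0.05 by edgeR. The 8 are to be read beside the 16.7% of all genes under that threshold between the knockdowns, and the 3 beside 8.54% in Gata4 KD against control. Of the 8, Lpp (log2 0.40), Zyx (0.29), Flna (0.20), Pdlim7 (0.15) and Palld (0.15) were higher in Gata4 KD than in Tbx20 KD. Lower were Pdlim3 (-2.31), Synm (-0.57) and Nexn (-0.15). None of the 8 overlapped, beside 12.2% of all genes higher and 10.8% lower without overlap. The 8 were picked by small p in the same libraries, so their separation adds no support. The 3 against control were Lpp (0.27, SE 0.10), Synm (-0.47, SE 0.20) and Pdlim3. Pdlim3, a linker at actin anchoring sites, had a log2 fold change of -1.99 (SE 0.67; edgeR adjusted p = 0.418) in Gata4 KD against control, with single libraries from 4.58 to 11.8 CPM in control and 0.44 to 4.78 CPM in Gata4 KD. Fhl2 (log2 0.18, SE 0.11), a co-factor of SRF, had the smallest p in Tbx20 KD, and Synm (log2 -0.57, SE 0.17; edgeR adjusted p = 0.151), an intermediate filament protein, that between the knockdowns. Among the 21 paralogs, of which 17, 16 and 16 were tested, none passed. An unadjusted p under 0.05 was reached by 2, 1 and 2 of them, beside 8.54%, 2.69% and 16.7% of all genes. Tagln2, Myh14 and again Tagln2 had the smallest p in the 3 comparisons. Myh14 was very low, at means of 0.566 CPM in control, 0.286 CPM in Gata4 KD and 0.275 CPM in Tbx20 KD, on 6 to 22 counts per library. Its log2 fold change against control was -1.04 (SE 0.36) in Tbx20 KD and -0.97 (SE 0.31) in Gata4 KD.

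Of 10 matrix genes that mark myofibroblasts, Tnc alone passed, between the knockdowns. In the 3 comparisons 3, 0 and 3 had an unadjusted p under 0.05 by edgeR, beside 8.54%, 2.69% and 16.7% of all genes. The 3 were Tnc, Cthrc1 and Col1a1 each time. Cthrc1 and Col1a1 were lower in Gata4 KD, at log2 -0.64 (SE 0.18) and -0.35 (SE 0.12) against control without overlap. Between the knockdowns they were at -0.54 (SE 0.22) and -0.32 (SE 0.13) with overlap. Tnc encodes tenascin-C, a matrix protein laid down at sites of injury. It was at 2098, 1756 and 2135 CPM in control, 3308, 3213 and 2675 CPM in Gata4 KD and 1826, 1402 and 1786 CPM in Tbx20 KD. Every Gata4 KD library was above all 6 others. Tnc was 1.83 times its Tbx20 KD level in Gata4 KD (log2 0.87, SE 0.12; edgeR adjusted p = 0.0242) and 1.54 times its control level (log2 0.62, SE 0.11; adjusted p = 0.0888). The call held in 8 of 13 other settings. Among those in which it was lost were the fits, at adjusted p of 0.121, 0.0832, 0.0858 and 0.118, without Gata4 KD a, Gata4 KD b, Tbx20 KD b and Tbx20 KD c. The matrix list was split, with 5 of 10 genes above 0 and a median of 0.05 between the knockdowns, and Postn, which encodes periostin, was at 1034 ± 189 CPM in control, 810 ± 242 in Gata4 KD and 1003 ± 141 in Tbx20 KD (SD, n = 3).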

How the data were processed

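The authors trimmed reads by quality and estimated expected counts per gene with RSEM and Bowtie2 on GRCm38, by strand; the submitters' processing notes name mm9. The deposited table holds these expected counts as whole numbers, not normalized, and no coordinates. RSEM shares out reads that match several genes, but none of the 75-base windows of the 10 genes occurs exactly in another annotated gene.

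Symbols, positions and lengths came from GENCODE M21 (GRCm38), in which 96.6% of IDs had a symbol. Each comparison was fitted on its 6 libraries in R 4.3.3 with edgeR 4.0.16 (filterByExpr, TMM, glmQLFit, glmQLFTest), with Benjamini-Hochberg adjustment over all genes and a threshold of 0.05. An exact permutation test of 3 against 3 cannot go below 0.1 and was not used. CPM was scaled over 9 libraries, and log2 CPM used a prior count of 2.

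The 10 genes and the gene lists were chosen with earlier results of these data known. Named were the 10 genes, the 2 targets, in each related list the genes that passed and the gene of smallest p, and the 5 genes most alike, of which 1 is not reported here; others named were picked after their values were seen. Alternatives used DESeq2 1.42.0, limma 3.58.1 (voom), the edgeR exact test, other scaling and filters, all 9 libraries, a replicate block and leaving out each library.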

Additional observations from a re-analysis of the deposited data

Results flagged for a closer look

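Tagln differed by a log2 value of 0.45 between Gata4 KD and Tbx20 KD: every Gata4 KD library lay above the control mean of 417 CPM and every Tbx20 KD library below it, and the difference did not pass the edgeR test (adjusted p = 0.065). Cald1 stood the same way around its control mean of 1923 CPM, with a log2 difference of 0.16 (edgeR adjusted p = 0.177), although its control libraries spanned both knockdowns. Tnc, the matrix gene, differed between the knockdowns by 0.87 on the log2 scale, which passed the edgeR test (adjusted p = 0.0242). No test of a cause was made for these differences.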

How the results depend on the processing

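Each comparison was refitted under 13 other settings. In Tbx20 KD against control no contractile gene passed under any of them. The targeted Tbx20 itself passed in only 3 of 13, so the lack of calls there does not show that the contractile genes were unchanged. In Gata4 KD against control 1 passed (Cnn1) with DESeq2 and with the edgeR exact test, and of the related genes 1 passed (Tnc) with no filter and with the exact test, and 2 (Cthrc1, Tnc) with DESeq2, against 0. Between the knockdowns the count of contractile genes, 0 in the report, was 2 (Cnn1, Tagln) with no filter, 4 (Cald1, Cnn1, Tagln, Tpm1) with DESeq2, 3 (Cnn1, Tagln, Tpm1) with the exact test and 1 (Cnn1) with all 9 libraries in one fit. The related genes, 1 in the report, were 2 with library size alone and with no filter (Tagln2, Tnc) and 5 with DESeq2 and with the exact test. DESeq2 and the exact test called more genes of every kind (273 and 250 against 55 in Gata4 KD against control, 10 and 8 against 1 in Tbx20 KD against control, 761 and 729 against 208 between the knockdowns), and no filter called 121 in the first, 2 in the second and 324 in the last; one fit of 9 libraries called 148 in the first.

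Correlations of the deviations of same-lettered replicates ran from -0.17 to 0.255 and were not above 0.1 for every pair in any comparison, so the letters were not treated as pairs. With the replicate block 1 contractile gene (Cnn1, adjusted p = 0.0262) and 0 related genes passed between the knockdowns (Tnc at adjusted p = 0.0574), and 5, 2 and 101 genes passed in all.

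Leaving out 1 library gave 0 to 3 contractile and 0 to 5 related genes between the knockdowns, and 0 to 1 related genes in Gata4 KD against control. The 3 contractile genes (Cnn1, Tagln, Tpm1) passed without Gata4 KD c, Tagln without Gata4 KD b and Cnn1 without Tbx20 KD a. Signs turned for small differences. Against control in Gata4 KD, Actg2 ranged from -0.08 to 0.35, Myh11 from -0.44 to 0.03, Tpm2 from -0.03 to 0.13 and Lmod1 from -0.04 to 0.04. In Tbx20 KD, Myl9 ranged from -0.16 to 0.01, Actg2 from -0.36 to 0.06, Cald1 from -0.11 to 0.12 and Tagln2 from -0.02 to 0.09. Between the knockdowns Myh11 ranged from -0.29 to 0.30. The causes were not tested. Apart from these, the contractile genes kept the sign of their log2 fold change under all settings run. At 53 to 155 counts per library, Myh11 and Actg2 are the least precise.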
